A study of Mus musculus with 11 samples.

Results

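Mir3078 and Mir4660 are precursor microRNA genes whose small RNA was low in mouse embryonic fibroblasts (MEF), highest between days 3 and 6 of reprogramming, and lower again on day 8. They are 2 of the 3859 rows of the table and 2 of the 1419 rows with a mean of at least 10 FPKM, of which 895 are miRNA rows. Both were selected on their measured values in MEF, on days 3 to 6 and on day 8, so that course is given as a description with no test. Values are FPKM, fragments scaled by transcript length and by sequencing depth, as the authors deposited them.

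The cells carried a doxycycline-inducible cassette for Oct4, Klf4, Sox2 and Myc (OKSM) and were labelled Mbd3f/-, with a floxed and a deleted copy of Mbd3, which encodes part of the NuRD chromatin complex. All 11 libraries carry that genotype label, controls included: uninduced MEF, days 1 to 8 after doxycycline (day 1, day 2 and so on), an established induced pluripotent stem cell (iPSC) line and embryonic stem cells (ESC). The ESC column of the table is headed V6.5, a name that the design text also uses for wild-type ESC, so the genotype of that library is uncertain. Doxycycline was first given in serum and LIF under reduced oxygen; a later medium held LIF, a serum substitute and the MEK and GSK3 inhibitors known as 2i. Cells of days 3 to 8, iPSC and ESC were plated on irradiated human foreskin fibroblasts, while MEF and days 1 and 2 were not. Each stage has 1 library, so differences have no replicate check and intervals cover counting error only. Day, medium, feeders and library cannot be told apart.

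MicroRNAs are short RNAs cut from hairpin precursors, and they pair with target transcripts mainly through bases 2 to 8, the seed. Several hairpins often lie in 1 host transcript and are released from it together, although the amounts of mature RNA can still differ. miR-124 is best known as an abundant microRNA of neurons, and its first gene lies in a long noncoding host RNA also called Rncr3. The intron of Sfmbt2, a gene for a Polycomb group protein that is imprinted in the mouse placenta, holds a large rodent cluster of repeated miR-466, miR-467, miR-669 and miR-297 hairpins. That cluster is known from trophoblast and from cultured ESC.

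In the GENCODE M21 annotation of GRCm38, Mir3078 (ENSMUSG00000092972) lies at chr14:64591185-64591271 on the plus strand and is 87 nt long. It falls in an exon of Mir124a-1hg, the host gene of Mir124a-1 at chr14:64587331-64593961, in 1 of its 4 annotated transcripts. Mir124a-1 lies 443 bases upstream on the same strand. Among rows with a position in the annotation it is the one other row of the table within 50 kb. Mir4660 (ENSMUSG00000078026) lies at chr2:10472540-10472623 on the plus strand and is 84 nt long. That gene ID is named Mir466o in the annotation, and RefSeq lists Mir4660 as a synonym of Mir466o, so the deposited name belongs to a miR-466 family hairpin. It lies in an intron (chr2:10461473-10523944) of Sfmbt2, which spans chr2:10370510-10595253, and 2 of the 7 Sfmbt2 transcripts run across it.

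The mature sequences below are from RefSeq (GRCm38.p6), 5′ to 3′, with the seed in capitals. The first 4 belong to the miRNA genes whose course across the 11 libraries was among the most like that of a member. These arms have 4 different seeds, and the 5′ arm of miR-7a comes from both Mir7-1 and Mir7-2. The last 2 belong to miR-466 genes outside chromosome 2 and show the GU-rich and the AC-rich repeats of this family.
mmu-miR-7a-5p: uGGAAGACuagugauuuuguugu
mmu-miR-3098-5p: uCCUAACAgcaggaguaggagc
mmu-miR-3098-3p: uUCUGCUGccugccuuuagga
mmu-miR-135b-3p: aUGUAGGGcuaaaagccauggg
mmu-miR-466k: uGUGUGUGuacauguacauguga
mmu-miR-466i-3p: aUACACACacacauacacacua

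The Sfmbt2 transcripts that run across Mir4660 start at chr2:10372436 and chr2:10372450, while transcripts starting at chr2:10370510 end before it. The window from 250 bases before the first of these starts (RefSeq, GRCm38.p6, chr2:10372186-10372485, plus strand) is printed because it lies before the transcripts that contain the whole group of hairpins described below, with each CG in capitals.
Sfmbt2 promoter window: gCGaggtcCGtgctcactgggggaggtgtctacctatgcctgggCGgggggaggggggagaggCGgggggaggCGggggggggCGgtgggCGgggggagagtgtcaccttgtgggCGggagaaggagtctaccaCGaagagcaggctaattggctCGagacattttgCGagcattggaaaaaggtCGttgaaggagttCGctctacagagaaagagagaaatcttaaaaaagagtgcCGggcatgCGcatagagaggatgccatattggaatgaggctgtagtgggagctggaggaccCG
It holds 16 CG dinucleotides and is 60% G or C. Of 32851 RefSeq promoter windows of this length, 33.0% hold at least as many CG and 94.6% hold at least 1, with a median of 7.

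Table totals were lowest on days 7 and 8, at 136296000 and 165140000 FPKM, against 251945000 to 342448000 in the other 9 libraries. Low values of 84-nt transcripts mostly fell on whole multiples of 1 step in each library (110 of 122 within 0.05 of a whole read). For a step fixed beforehand 10% would do so by accident. Here the step was chosen to make most of these values whole, so the share by accident is higher and was not measured. A single read was worth between 22.9 FPKM on day 7 and 43.2 FPKM in MEF for such a transcript. These steps were used to turn FPKM into implied reads, and the 95% intervals below are exact Poisson intervals or, for folds, exact conditional intervals on those reads. They do not cover the spread between cultures.

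Mir3078 was near the level of single reads in MEF, at 76.9 FPKM, which corresponds to about 2 reads. It was 895 FPKM on day 1 (25 reads), 7211 on day 2 (218 reads), 14660 on day 3 (633 reads) and 13078 on day 4 (529 reads). It was then 8559 on day 5 (237 reads), 6258 on day 6 (204 reads), 826 on day 7 (40 reads) and 348 on day 8 (16 reads). In the pluripotent lines it was 8255 FPKM in iPSC (271 reads) and 5016 in ESC (197 reads). Days 3 and 4 were thus highest and their intervals overlap, while MEF and day 8 were lowest and theirs overlap too. Day 1 was 11.6-fold above MEF, with an interval of 2.90 to 101 because MEF holds 2 reads. Between days 1 and 8 the steepest steps were the 8.06-fold gain from day 1 to day 2 (5.26 to 12.6) and the 7.58-fold loss from day 6 to day 7 (5.38 to 10.9). From MEF to day 3 the ratio was 191, with a wide interval of 51.8 to 1555 because it rests on 2 reads. Day 3 was 42.1-fold above day 8 (25.5 to 73.4).

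The low value of Mir3078 on day 8 did not extend to the pluripotent lines. It was 23.7-fold higher in iPSC than on day 8 (14.2 to 41.6) and 14.4-fold higher in ESC than on day 8 (8.55 to 25.4). Under the scalings given below these were still 10.4-fold to 13.7-fold and 6.79-fold to 8.94-fold. The day 3 value was only 1.78-fold above iPSC (1.54 to 2.06) and 2.92-fold above ESC (2.49 to 3.45). iPSC exceeded ESC 1.65-fold (1.37 to 1.99). In ascending order the levels were MEF, day 8, day 7, day 1, ESC, day 6, day 2, iPSC, day 5, day 4 and day 3. Neighbours in that order have overlapping counting intervals except day 8 and day 7, day 1 and ESC, and day 5 and day 4. Days 7 and 8 were thus below days 2 to 6 and below both pluripotent lines. These are established lines and not later days of the same culture, so no return after day 8 was observed.

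Mir4660 was listed at 0 in MEF. Abundant microRNAs were listed at 0 in that library too, among them Mir143 at 40549900 FPKM on day 1. Mir143 is far more abundant than Mir4660, whose highest value was 7286 FPKM. In MEF a read was worth the most FPKM of the 11 libraries (43.2), and Mir466m and Mir466g were also listed at 0 there. The median of the miR-466 rows within 50 kb of Mir4660 was 318 FPKM in MEF. The 0 of Mir4660 may or may not be a measured absence, and no fold is given against it. Taken as a count of 0 reads, it has an interval that reaches 3.69 reads, or 159 FPKM. Which of these holds was not tested. Mir4660 was 522 FPKM on day 1 (13 reads), 991 on day 2 (27 reads), 2616 on day 3 (102 reads) and 4410 on day 4 (161 reads). It was then 4552 on day 5 (114 reads), 7286 on day 6 (214 reads), 1579 on day 7 (69 reads) and 1291 on day 8 (53 reads). The iPSC value was 1923 (57 reads) and the ESC value 2985 (106 reads). Day 6 stood alone at the top, since its interval overlaps with that of no other stage. It was 14.0-fold above day 1 (7.99 to 26.7), 1.60-fold above day 5 (1.27 to 2.03), 4.61-fold above day 7 (3.50 to 6.14) and 5.65-fold above day 8 (4.16 to 7.78).

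For Mir4660 the pluripotent lines lay between day 8 and the peak in the deposited values. Day 6 was 3.79-fold above iPSC (2.82 to 5.17) and 2.44-fold above ESC (1.93 to 3.11). As deposited, iPSC was 1.49-fold above day 8 (1.01 to 2.21), a direction that turns under the scalings given below, where the ratio was 0.852 by the median ratio, 0.862 by the miRNA total and 0.653 by the total of miRNA rows above 0 in every library. ESC was 2.31-fold above day 8 (1.65 to 3.28), and 1.09-fold to 1.44-fold under these scalings. In ascending order the levels were MEF, day 1, day 2, day 8, day 7, iPSC, day 3, ESC, day 4, day 5 and day 6. Neighbours from day 1 to ESC, and day 4 and day 5, have overlapping intervals. All 11 values of Mir4660 were whole numbers of reads within 0.05, against 3 of the 11 of Mir3078. Mir4660 has the 84 nt on which the steps were set, and its own low values were among those used. Mir3078 was converted with 1 fitted factor for 87 nt (0.9025) in all libraries. The contrast is thus partly built in, and nothing is read from it. How the authors assigned reads that match several loci is not given in the sources used here.

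**Figure D1:**
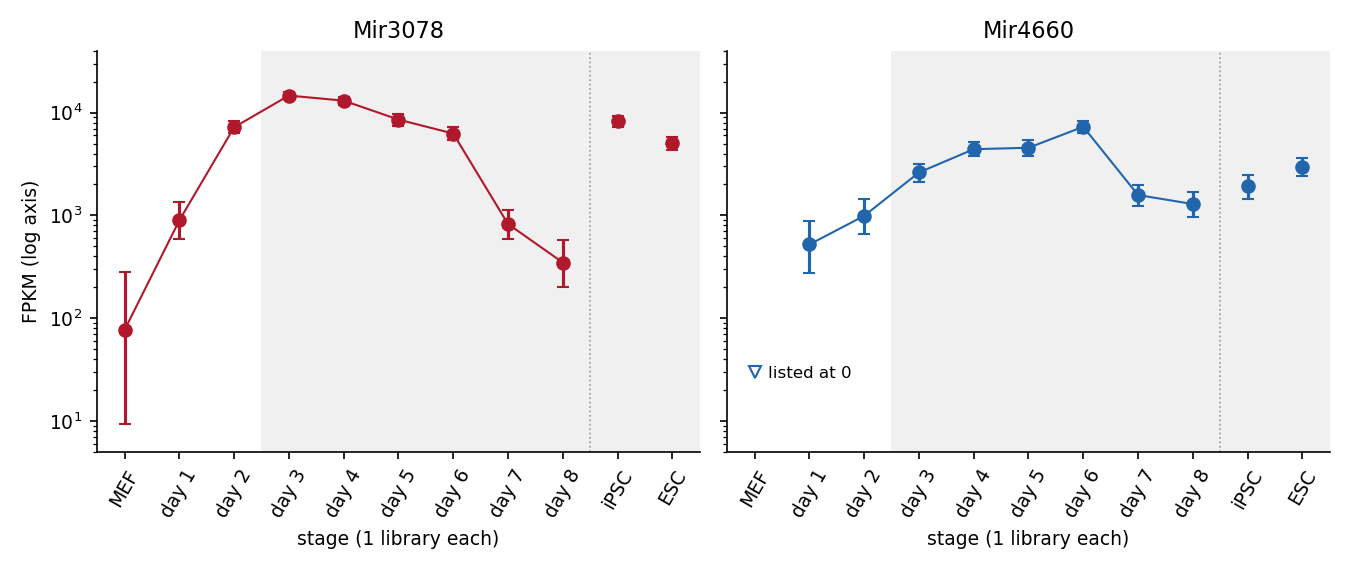
FPKM on a log axis (vertical) of Mir3078 and Mir4660 in the 11 libraries (horizontal), with exact Poisson 95% intervals of the implied reads as bars; the grey area marks the libraries grown on human feeders, and the open triangle marks a value listed at 0, set at an arbitrary height. Mir3078 is highest on days 3 and 4 (14660 and 13078) and Mir4660 on day 6 (7286), and both deposited iPSC values lie above those of day 8, which for Mir4660 turns under scaling (0.852 by the median ratio).

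The 2 members peaked on different days. On day 3 Mir3078 was at its highest and Mir4660 at 2616 FPKM. From day 3 to day 6 Mir4660 went up to 7286 FPKM and Mir3078 went down to 6258 FPKM. Their courses had a Pearson r of 0.80 over the 11 libraries on log2(FPKM + 10), which placed Mir4660 at rank 68 among the transcripts most like Mir3078. These 11 points share the libraries and their depths, and the median r of all 1419 transcripts with Mir3078 was 0.24.

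The values of both members were read against all 1419 transcripts, with 4-fold (2 on the log2(FPKM + 10) scale) as the size that counts as different. Day 3 was at least 4-fold above MEF for 29.1% of transcripts, and the Mir3078 difference was 7.40 against a median of 0.69. Day 6 was at least 4-fold above MEF for 35.7%, and the Mir4660 difference was 9.51 against a median of 1.08, where the size of 9.51 depends on the added 10 because MEF is listed at 0. Day 6 was at least 4-fold above day 1 for 24.7%, and Mir4660 differed by 3.78. Since both members were chosen for these differences, the shares serve only to place them.

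On the way down, day 8 was at least 4-fold below day 3 for 19.1% of transcripts, and the Mir3078 difference was -5.36 against a median of -0.07. Day 8 was at least 4-fold below day 6 for 14.9%, and the Mir4660 difference was -2.49 against a median of -0.29. Day 7 was at least 4-fold below day 6 for 15.9%, with differences of -2.91 for Mir3078 and -2.20 for Mir4660 against a median of -0.86. Much of the table was therefore lower on day 7 than on day 6.

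The iPSC and ESC values were not part of the choice, but MEF and day 8, against which they are set here, were chosen to be low, so these differences are a description too. iPSC was at least 4-fold above day 8 for 22.6% of transcripts and ESC for 13.7%. Mir3078 passed that size in both lines, with differences of 4.53 and 3.81, and Mir4660 in neither, with 0.57 and 1.20. iPSC was at least 4-fold above MEF for 39.3% of transcripts and ESC for 36.4%. Both members passed in both lines, Mir3078 with 6.57 and 5.85 and Mir4660 with 7.59 and 8.23, the latter pair against a MEF value listed at 0.

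A transient course, highest on days 3 to 6 and at least 4-fold above both MEF and day 8, was found in 185 transcripts, or 13.0% of the 1419. The count was 112 after scaling by the median ratio and 118 by the miRNA total, and Mir4660 was not among the latter. Of the 185, 157 were miRNA rows, as were 895 of all 1419. In MEF 98 of the 185 were listed at 0, which may not be a measured absence, and 75 of the 185 reached 1000 FPKM at the peak. Shares of all 1419 are not given for the 98 and the 75, so nothing is read from these counts. The highest day was day 3 for 49, day 4 for 57, day 5 for 21 and day 6 for 58. Ranked by the smaller of the 2 differences, Mir3078 was 11th at 5.36 and Mir4660 122nd at 2.49. Mir1954 lay just inside the threshold at 2.0016, and Mir466f-3, which lies 493 bases upstream of Mir4660, just outside at 1.9962. The 5 other transcripts with the largest smaller difference carry predicted gene names in the table, of which Gm23572 and Gm23866 are named as miRNA genes in the annotation (Mir5620 and Mir5619). Gm23577 reached 1934 FPKM on day 6 with 0 listed for MEF and days 7 and 8, and Gm25117 was 3321 on day 4 and 3747 on day 5. The others were Gm24958, which reached 954 FPKM on day 3 but was listed at 0 both in MEF and on day 8, Gm23572 and Gm23866.

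Of the 185 transcripts, 62 (33.5%) had both iPSC and ESC at least 2-fold above day 8, against 394 (27.8%) of all 1419. The 185 were chosen for a low day 8, which favours the first share, so nothing is read from the difference. Of the 185, 49 had peaks at least 4-fold above both iPSC and ESC. The share of all 1419 is not given for the 49, so nothing is read from that count. Mir3078 belongs to the 62, and neither member to the 49.

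**Figure D2:**
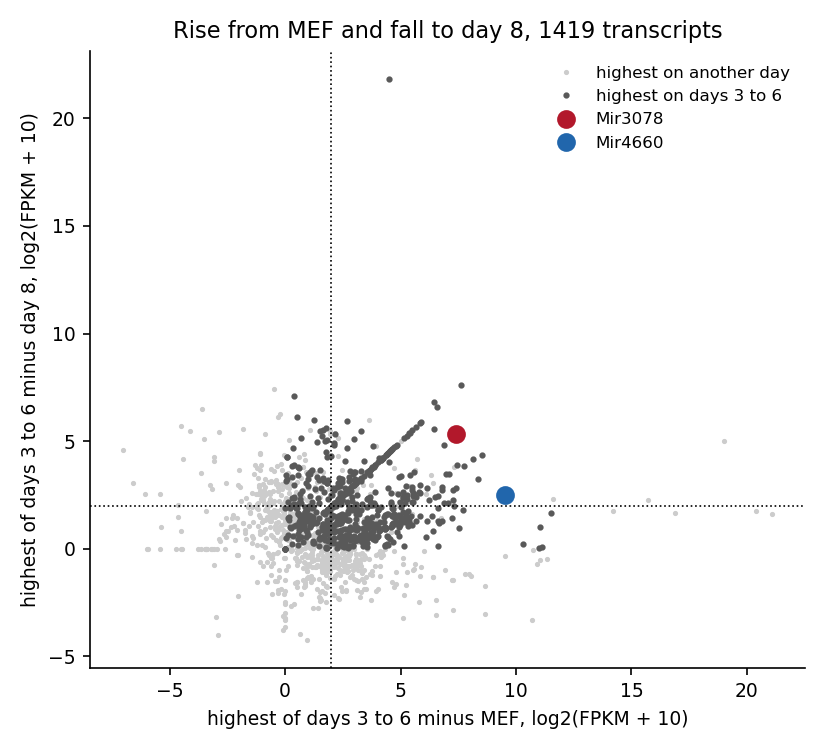
Each point is 1 of the 1419 transcripts; the horizontal axis is the highest of days 3 to 6 minus MEF and the vertical axis the highest of days 3 to 6 minus day 8, both in log2(FPKM + 10), with dotted lines at 2. Mir3078 lies at 7.40 and 5.36 and Mir4660 at 9.51 and 2.49; the point at 21.8 on the vertical axis is Mir182, which is listed at 0 on day 8.

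Mir3078 shares its host gene with Mir124a-1, whose microRNA is the neuronal miR-124. Mir124a-1 was 1495 FPKM in MEF, 2028 on day 1, 5057 on day 2, 7442 on day 3, 10637 on day 4, 8900 on day 5, 7494 on day 6, 1367 on day 7 and 852 on day 8. It was 11801 in iPSC and 10313 in ESC. Like Mir3078 it was high on days 3 to 6, low on days 7 and 8 and high in both pluripotent lines. It peaked a day later, on day 4, and its iPSC and ESC values were close to its peak.

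The ratio of Mir3078 to Mir124a-1 within a library does not depend on how libraries are scaled. It was 0.051 in MEF (0.0061 to 0.202), 0.441 on day 1 (0.267 to 0.737), 1.43 on day 2 (1.15 to 1.77) and 1.97 on day 3 (1.72 to 2.27). It was then 1.23 on day 4 (1.08 to 1.40), 0.962 on day 5, 0.835 on day 6, 0.604 on day 7 and 0.409 on day 8 (0.215 to 0.768). The ratio was 0.700 in iPSC (0.596 to 0.821) and 0.486 in ESC (0.407 to 0.579). Mir3078 thus outran its neighbour up to day 3 and lagged behind it afterwards, and the day 3 interval overlaps only with that of day 2. Reads of mature miR-124 match all 3 miR-124 genes, so the Mir124a-1 values hold reads that may come from the other two. The FPKM ratio also depends on the difference in length between 87 and 85 nt, which is the same in every library.

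Mir124a-2, at chr3:17795662-17795770, had 395 FPKM in MEF, 5152 by day 4 and 467 on day 8, and Mir124a-3, at chr2:180894040-180894107, was 1248, 11001 and 1231 at these stages. Both lie on other chromosomes, and their courses had a Pearson r of 0.95 and 0.91 with Mir3078, against 0.89 for Mir124a-1. All 3 miR-124 genes were transient by the 4-fold size, as were Mir9-2 and Mir9-3, which encode the neural miR-9. The neural list thus had 5 transient members of 8 tested, where 13.0% of all transcripts were transient. These 5 rows stand for only miR-124 and miR-9, and copies of the same microRNA are not independent. The reads of the 3 miR-124 copies cannot be told apart. Mir128-1, Mir128-2 and Mir137 were not transient. The summed FPKM of the neural list, which counts every copy, ranged from 142479 to 907145 over days 1 to 8. It was 200681 in MEF, 142126 in iPSC and 125280 in ESC, and 1 member of the list, Mir137, was at 0 in a library. Mir9-2 was 425230 FPKM on day 6 but 11142 in iPSC and 9224 in ESC, unlike Mir3078. No member was transient in the pluripotent list (11 tested), the fibroblast and mesenchymal list (8), the epithelial list (7), the muscle list (5), the blood list (7) or for the endothelial Mir126. The part of other cell types in the course of Mir3078 was not tested.

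**Figure D3:**
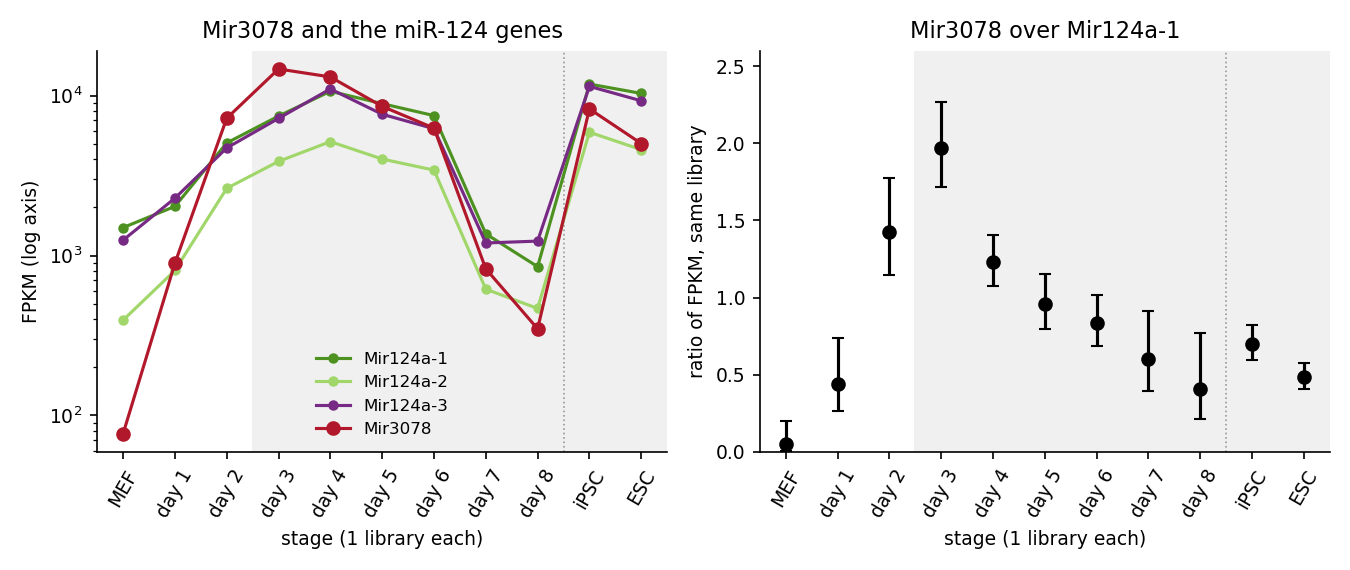
Left, FPKM on a log axis of Mir3078 and the 3 miR-124 genes by stage; right, the ratio of Mir3078 to Mir124a-1 in the same library, with 95% intervals for counting error. The 4 genes dip together on days 7 and 8, and the ratio is highest on day 3 (1.97) and lowest in MEF (0.051); the grey area marks libraries grown on feeders.

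The 5 transcripts with the course most like that of Mir3078 were Mir124a-2 (r 0.95), Gm23134 (0.95), Mir7-1 (0.94), Mir3098 (0.93) and Mir7-2 (0.93). Mir3098 was at 234 FPKM in MEF, 1389 on day 3, 1656 on day 4, 176 on day 8 and 1492 in iPSC. Mir7-1 and Mir7-2 were far more abundant, at 268719 and 354814 FPKM on day 3 and 117763 and 153215 on day 8. They give the same mature 5′ arm, printed above, so they are not independent. Over the 9 libraries from MEF to day 8 alone, r was between 0.93 and 0.97 for these 5. With Spearman's rho in place of Pearson's r none of them was among the top 5.

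Among rows with a position in the annotation, Mir4660 has 106 others within 50 kb, all in the Sfmbt2 region. Of these, 84 had a mean of at least 10 FPKM. Of these 84, 69 were highest on day 6 of the course, as Mir4660 was, against 224 (15.8%) of all 1419. The difference between day 6 and MEF was at least 4-fold for 77 of the 84, where 35.7% of all transcripts passed. Its median was 4.50 against 1.08 for all. In MEF 30 of the 84 were listed at 0. The share of all 1419 is not given for the 30, so nothing is read from that count. The difference between day 8 and day 6 had a median of -1.43 against -0.29 for all, and 22 were at least 4-fold lower, where 14.9% of all were. A transient course was found in 25 of the 84, where 13.0% of all had one. Their median r with Mir4660 was 0.86. Many of these hairpins have near-identical copies, so reads may be shared between them and they are not independent of each other or of Mir4660.

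The neighbours differed by family in how low they were on day 8, a grouping by name that was chosen after the values were seen. All 19 miR-466 neighbours were highest on day 6. Their day 8 minus day 6 difference had a median of -2.44, with a range of -2.93 to -1.55, and 16 were at least 4-fold lower, as Mir4660 was at -2.49. All 14 miR-467 neighbours were also highest on day 6, but their median was -1.04, with a range of -1.69 to -0.16, and none was 4-fold lower. Of the 19 miR-669 neighbours 18 were highest on day 6, with a median of -1.41 and none 4-fold lower. The 4 neighbours with miR-297 in their table name had a median of -1.54 and none was 4-fold lower. Gm24114, named Mir297a-2 in the annotation, is not among these 4 and was at -1.60. The rest of the 22 neighbours that were at least 4-fold lower carry other names. Among them are Gm25285 at -2.54 and Gm26398 at -3.27, the latter listed at 0 on day 8. Among the 4 families named, Mir4660 thus lay with the miR-466 hairpins in the extent of its decline.

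**Figure D4:**
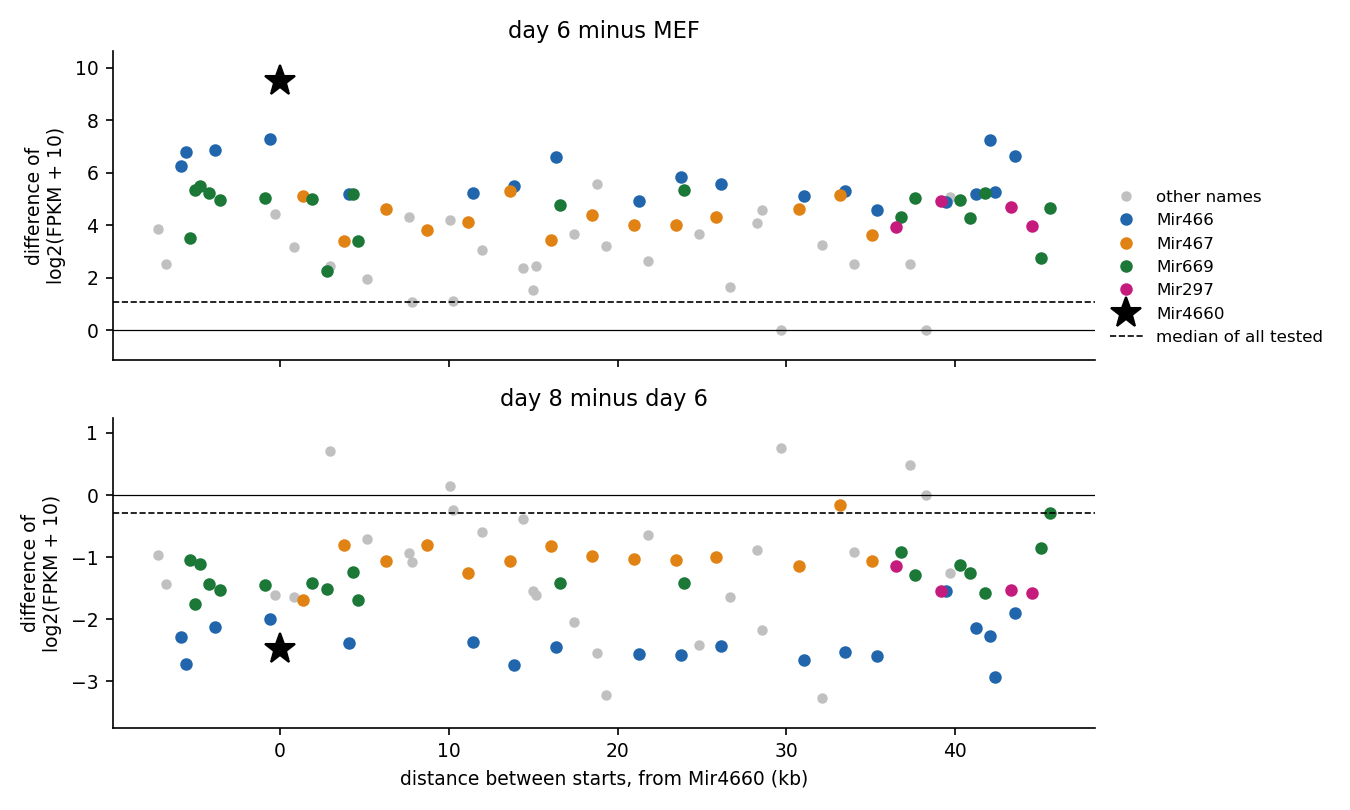
Difference in log2(FPKM + 10) between day 6 and MEF (top) and between day 8 and day 6 (bottom) for the 84 neighbours of Mir4660, against the distance between starts in kb, with colours for the miRNA family in the name. Of the neighbours 77 lie at 2 or more at the top. At the bottom most miR-466 points are at least 4-fold lower, as are Mir4660 at -2.49 and some rows with other names.

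The split between families is also seen within single libraries, where scaling plays no part. The median FPKM of the miR-466 neighbours over that of the miR-467 neighbours was 0.430 in MEF, 1.58 on day 3, 1.18 on day 6, 0.641 on day 7 and 0.419 on day 8. It was 0.642 in iPSC and 0.669 in ESC. Mir4660 itself stayed near 0.5 of the miR-466 median from day 1 on, between 0.427 on day 2 and 0.570 on day 1 in the course, with 0.665 in iPSC and 0.518 in ESC. Its share of the summed FPKM of itself and its neighbours was 1.05% on day 3, 0.756% on day 6 and 0.312% on day 8.

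Among single neighbours, Mir466b-5 had 151 FPKM in MEF, 15746 at its day 6 peak and 2890 on day 8. Mir467c, 1307 bases downstream of Mir4660, had 3017 in MEF, 105160 at its day 6 peak and 32499 on day 8. Mir466f-3 was listed at 0 in MEF and was 1563 on day 6 and 384 on day 8. All 3 had iPSC and ESC values below day 6, with 3238 and 5578 for Mir466b-5, 25780 and 58251 for Mir467c, and 339 and 485 for Mir466f-3.

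The 5 transcripts with the course most like that of Mir4660 were Mir466g (r 0.98), Mir466b-5 (0.98), Mir297-1 (0.96), Mir135b (0.96) and Mir466b-7 (0.95), against a median of 0.26 for all. Of these, 3 are Sfmbt2 neighbours, while Mir297-1 lies on chromosome 7 and Mir135b on chromosome 1. Mir135b was 592 FPKM in MEF and 110803 on day 6, but at 57116 on day 8 and 92419 in iPSC it was lowered less than Mir4660. Of the miR-466 genes on other chromosomes, Mir466f-4 reached 437 FPKM on day 6 (r 0.89) and Mir466k 102 FPKM on day 5 (r 0.86). Mir466i and Mir466j had means under 10 FPKM.

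The size of the decline depends on how libraries are scaled. Scaled by the median ratio over the 787 transcripts above 0 in every library, day 6 exceeded day 7 by 3.77-fold for Mir3078 and 2.30-fold for Mir4660, in place of 7.58 and 4.61. Scaled to the miRNA total, these were 3.79 and 2.31. The day 6 to day 8 ratio of Mir4660 was 5.65 as deposited, 4.06 by the median ratio and 3.34 by the miRNA total, so that Mir4660 is no longer 4-fold lower under the latter. Its call also rests on the day 6 library: without day 6, the highest value is that of day 5, which is 3.53-fold above day 8 (2.52 to 4.98). Mir3078 kept a 24.7-fold excess of day 3 over day 8 by the miRNA total and 34.3-fold by the median ratio, and it stayed transient without any 1 of days 1 to 7.

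**Figure D5:**
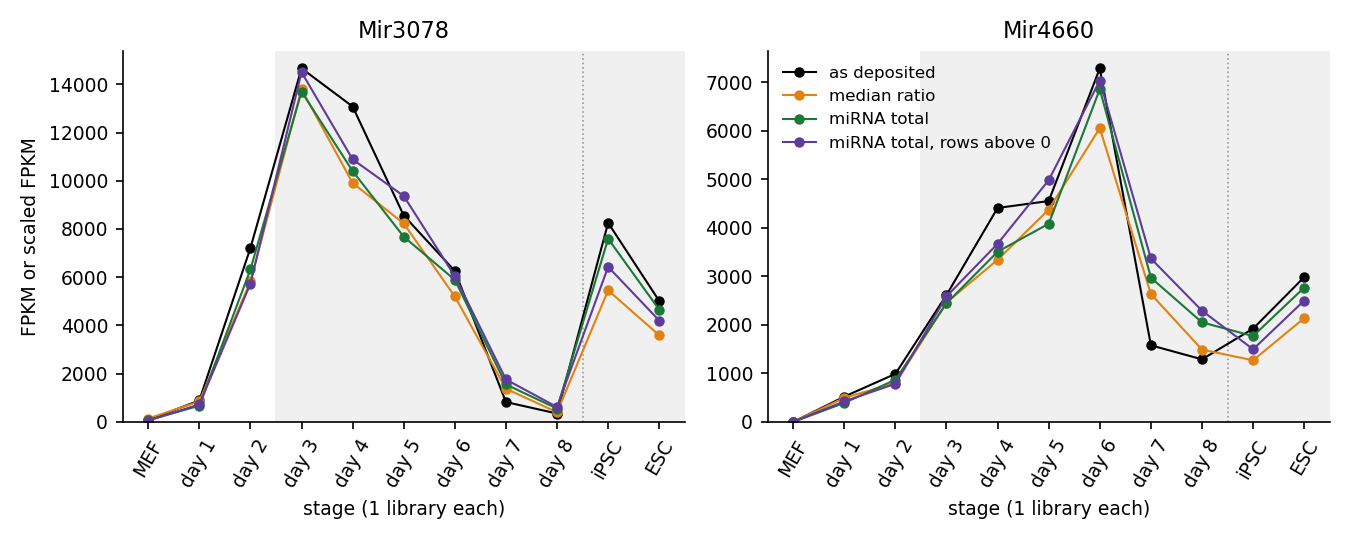
Course of Mir3078 and Mir4660 in FPKM as deposited and after 3 scalings, on linear axes that start at 0; the grey area marks libraries grown on feeders. The peaks stay on day 3 and day 6 under each scaling; days 7 and 8 come out higher and iPSC lower in the scaled courses, and the iPSC value of Mir4660 lies above that of day 8 only as deposited.

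Mir3078 had its peak on the first day on feeders. The 2 rows named here that step up on that day, Mir654 from 147 FPKM on day 2 to 297835 on day 3 and Gm24899 from 0 to 29241, had little or no signal before it. Both were high in ESC, at 164921 and 14177 FPKM, but not in iPSC, at 67.5 and 50.4 FPKM, although the labels place both lines on feeders. Mir3078 had already reached 7211 FPKM on day 2, without feeders, and Mir4660 991 FPKM. From day 2 to day 3 Mir3078 was 2.03-fold higher (1.74 to 2.38) and Mir4660 2.64-fold (1.71 to 4.20). Feeder RNA and its part in the values from day 3 on were not tested.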

How the data were processed

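Small RNA was measured in 11 libraries, 1 per stage, taken from the labels; replicates do not exist. FPKM were computed by the authors. Cufflinks 2.2.1, CASAVA 1.8.2, Bowtie2 2 and mm10 are listed, with no roles, per the submitters' processing notes; read assignment is not given in the sources used here. FPKM of short transcripts depends strongly on length, so courses were compared within a transcript. The ratios, shares and levels that set different transcripts side by side carry an effect of their lengths. The table has 0 columns of other samples. Gene IDs were looked up in GENCODE M21 (3712 of 3859 found). The 147 others have no position here and could not be counted as neighbours.

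Computed here (Python 3.11.15, pandas 2.3.3, scipy 1.17.1): log2(FPKM + 10) for the 1419 rows with a mean of at least 10 FPKM, folds, counts past 4-fold, Pearson r over 11 libraries, and implied reads from the value steps, checked on simulated data. No test was made. Alternatives were pseudocounts 1 and 50, filters, scalings, other thresholds and leaving out stages. Named transcripts are the members, the 5 most like each, the 5 most transient others, neighbours within 50 kb, and Mir654 and Gm24899. Others were chosen after their values were seen. Members and lists were chosen with earlier results of these data known.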

Additional observations from a re-analysis of the deposited data

How the results depend on the processing

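No paired analysis was possible because each stage has 1 library. No difference between a member's peak and MEF, day 8, iPSC or ESC changed sign under any alternative run. Against MEF and day 8 the positive sign was set by the choice of members, so this is no check. Taking the highest of days 3 to 6 as the peak also favours a positive sign against iPSC and ESC. The iPSC to day 8 ratio of Mir4660 did turn, from 1.49 as deposited to 0.653 to 0.862 under the 3 scalings. On the log2 scale, the Mir3078 peak minus day 8 (5.36) was 4.60 scaled to the miRNA total and 4.53 scaled to the miRNA rows above 0 in every library, a setting chosen after seeing the data. Its peak minus iPSC (0.83) was 1.34 by the median ratio, 1.17 by that added scaling and 0.29 with the mean of days 3 to 6 as the peak. Its peak minus ESC (1.55) was 1.94 by the median ratio and 1.00 with that mean. For Mir4660, the peak minus MEF (9.51) was 12.83 with pseudocount 1 and 7.20 with 50, by construction of a value against 0. Its peak minus day 8 (2.49) was 2.01 by the median ratio, 1.74 by the miRNA total, 1.61 by the added scaling and 1.77 with the mean of days 3 to 6. With that mean, the peak was 1.20 above iPSC (1.92) and 0.57 above ESC (1.28).

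The count of transient transcripts (185) was 122 with pseudocount 50, 112 by the median ratio, 118 by the miRNA total, 110 with a mean of at least 100 FPKM, 373 at 2-fold, 80 at 8-fold and 77 with iPSC and ESC in place of day 8. Leaving out each of days 1 to 7, added after seeing the data, gave 147 to 218. Mir3078 was among them except with iPSC and ESC in place of day 8. Mir4660 was not among them in that setting, at 8-fold, by either miRNA total, or without day 6.

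Of the 5 transcripts most like Mir3078, 3 were kept by the median ratio, 2 by the miRNA total and 0 with Spearman's rho. Leaving out each stage kept 2 to 5. Of those most like Mir4660, 2 were kept with pseudocount 1, 3 with 50, 3 over the 9 libraries of the course and 1 with Spearman's rho. Leaving out each stage kept 1 to 5. The cause of these changes was not tested. In MEF 2 reads of Mir3078 limit any ratio against that library.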
